A study of Mus musculus with 4 samples.

Results

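Matrix metalloproteinases (MMPs) are zinc-dependent enzymes that cut collagens, elastin and other proteins of the extracellular matrix, and they are made as inactive precursors that other proteases open. Tissue inhibitors of metalloproteinases (TIMPs) block the active enzymes, so the balance of both sets how fast matrix is remodelled. In tumors these genes are expressed by cancer cells, fibroblasts, macrophages, neutrophils and vessel cells alike, and each cell type is known for its own set. Described here are 10 of these genes, chosen by name and matched by symbol in the count tables of all 4 libraries, among 18605 genes that all 4 tables list. They are the gelatinases Mmp2 and Mmp9, the stromelysin Mmp3, the collagenases Mmp8 and Mmp13, the elastase Mmp12 of macrophages, the membrane-bound Mmp14, and the inhibitors Timp1, Timp2 and Timp3. All 10 were detected, with between 1349 (Timp3) and 90814 (Timp2) unique molecular identifiers (UMIs, each counting 1 captured mRNA molecule) over the 4 libraries.

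Single-cell RNA sequencing was performed on LLC tumors, which grow from Lewis lung carcinoma cells (a line from a mouse lung tumor) injected under the skin, in C57/BL6N mice aged 6 to 8 weeks. The radiotherapy group (RT) held 3 libraries, RT1, RT2 and RT3, each of 1 tumor that received 24 Gy as 3 fractions of 8 Gy on days 7 to 9 after injection, when tumors averaged 100 mm3. The radiation naive group (NT) was mock-treated and held 1 library into which 3 tumors were pooled. All tumors were taken 72 h after treatment, and the single NT library leaves the comparison without a replicate on the control side, and no test was run. The table of NT held 69667759 UMIs, and those of the RT libraries held 78585759, 108699844 and 85660188. The filters left 55058 cells, 9976 of them from NT and 15029, 14993 and 15060 from the RT libraries in that order. The RT2 table stood apart: it lists 18605 genes by symbol alone, and no barcode in it exceeded 11.95% mitochondrial UMIs, whereas the other tables list 32285 genes and their kept barcodes reached 19.79% to 19.93%. Between 175 and 274 cell barcodes were shared by each pair of libraries, and 2631 of 55058 cells carried a barcode that was also present in another library.

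Cells were clustered without the 10 genes, and clusters were named from marker lists as 8 classes. Tumor cells, named from Rhox5, Krt8, Krt18, Hmga2 and Prl2c2, of which Prl2c2 was nearly absent (at most 0.490 CPM) and Krt18 low (at most 32.8 CPM), were 72.5% of all cells in NT, against 52.9% in RT1, 49.4% in RT2 and 60.6% in RT3. From here on, the 3 values given for RT follow that order of libraries. The macrophage share of cells was 7.29% in NT and 18.6%, 18.1% and 10.9% in RT, and that of monocytes 5.52% in NT and 12.2%, 13.6% and 12.04% in RT. Fibroblasts and neutrophils were few, with 18 and 20 cells in NT, so that the NT level of any gene in these classes rests on a small number of cells. Clusters without a name held 9.40% of cells in NT and between 10.1% and 11.0% in RT, and between 0% and 7.4% of the UMIs of any of the 10 genes in a library. Levels below are in CPM, the UMIs of a gene for every 1000000 UMIs of the same population and library, and changes are log2 ratios of RT over NT, given as mean ± SD over the 3 RT libraries.

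Of the 10 genes, 4 lie side by side. In GRCm38, Mmp13 (chr9:7272514-7283331), Mmp12 (chr9:7344381-7369499), Mmp3 (chr9:7445822-7455975) and Mmp8 (chr9:7558456-7568485) span 296 kb of chromosome 9 on the plus strand, together with Mmp10 and Mmp1b. The others are spread out, Mmp2 at chr8:92827291-92853420, Mmp9 at chr2:164940780-164955850, Mmp14 at chr14:54431612-54445364, Timp1 at chrX:20870166-20874735, Timp2 at chr11:118301069-118355740 on the minus strand and Timp3 at chr10:86300372-86349506. Timp1 and Timp3 lie inside Syn1 and Syn3, which run on the opposite strand, and Mmp12 overlaps Mmp1b on the opposite strand, while Timp2 holds Cep295nl on its own strand. Promoter sequences (RefSeq, GRCm38.p6, 250 bases before to 50 after a start site) were found for 8 of the 10 genes, all but Mmp2 and Mmp9, as 9 promoters. The letters TGANTCA, the core to which AP-1 (the Fos and Jun family) binds, were searched on both strands and occurred in 3 of these 9, and in 7.81% of all 32851 promoters of the same length. The letters TATAAA, also searched on both strands, occurred in 4 of the 9 (in Mmp8 on the minus strand) and in 13.6% of all. Mmp3, Mmp12 and Mmp13 held both, as did 1.54% of all promoters, and their AP-1 letters lay 46, 44 and 35 bases before the start site (for Mmp12, the downstream one of its 2 promoters) and did not overlap TATAAA. The 3 sites are shown because these neighbours carry the same element at similar distances. Capitals mark the match, on the plus strand.
Mmp3, chr9:7445764-7445793: tggaagcaattaTGAGTCAgttttcgggtg
Mmp12, chr9:7347318-7347347: tgacatcaacagTGAGTCAgatagaggatt
Mmp13, chr9:7272467-7272496: accccaaagtggTGACTCAtcactatcatg

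The first question was whether the genes were more abundant in irradiated tumors as a whole. A gene was called when RT and NT differed at least 2-fold in 1 direction in every RT library, and genes with at least 50 UMIs were examined. Over all kept cells 3 of 10 genes were called higher and 0 lower, while 5.55% of the 14437 genes examined were called higher and 0.242% lower. By any amount, 7 of the 10 were higher in every RT library, against 34.2% of all genes, and the median log2 ratio was 0.86 for the 10 genes and 0.00 for all. The genes called were Mmp2, Mmp3 and Mmp8, and none of the TIMPs was among them.

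Mmp2, the gelatinase that is typical of stromal cells, was at 16.5 CPM in NT (exact Poisson 95% interval 15.6 to 17.5, counting error only, as for all such intervals) and at 61.6, 50.9 and 57.3 CPM in RT. The RT libraries lay close together and all above NT, at a log2 ratio of 1.77 ± 0.14. Mmp3, which cuts proteoglycans and opens other MMP precursors, was at 2.86 CPM in NT and at 14.4, 7.71 and 11.1 CPM in RT (1.91 ± 0.45). Mmp8, the collagenase stored in neutrophil granules, was at 0.780 CPM in NT, from 54 UMIs, and at 6.34, 8.01 and 10.4 CPM in RT (3.37 ± 0.36), the largest ratio among the 10 genes.

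Mmp9, the second gelatinase, was at 11.7 CPM in NT and at 66.2, 81.4 and 22.6 CPM in RT, and RT3 missed the 2-fold limit with a log2 ratio of 0.94. Mmp12 was at 17.1 CPM in NT and at 67.1, 30.8 and 26.0 CPM in RT, with RT1 far above the other RT libraries (1.14 ± 0.73). Mmp13 had no common direction, with 28.4 CPM in NT and 41.2, 23.4 and 18.4 CPM in RT. Mmp14, which is anchored in the plasma membrane and activates Mmp2, was moderately higher in each RT library, with 110 CPM in NT and 148, 184 and 142 CPM in RT (0.52 ± 0.20).

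Among the inhibitors, Timp2, which both inhibits MMPs and takes part with Mmp14 in the activation of Mmp2, was at 186 CPM in NT and at 261, 338 and 245 CPM in RT (0.58 ± 0.25). Timp1 was at 25.3 CPM in NT and at 24.98, 32.1 and 30.8 CPM in RT, a mean log2 ratio of 0.20 that is as large as its SD of 0.19. Timp3, which is held in the matrix and also inhibits ADAM proteases, was at 2.77 CPM in NT and at 2.77, 6.97 and 2.16 CPM in RT, so that only RT2 was apart.

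**Figure D1:**
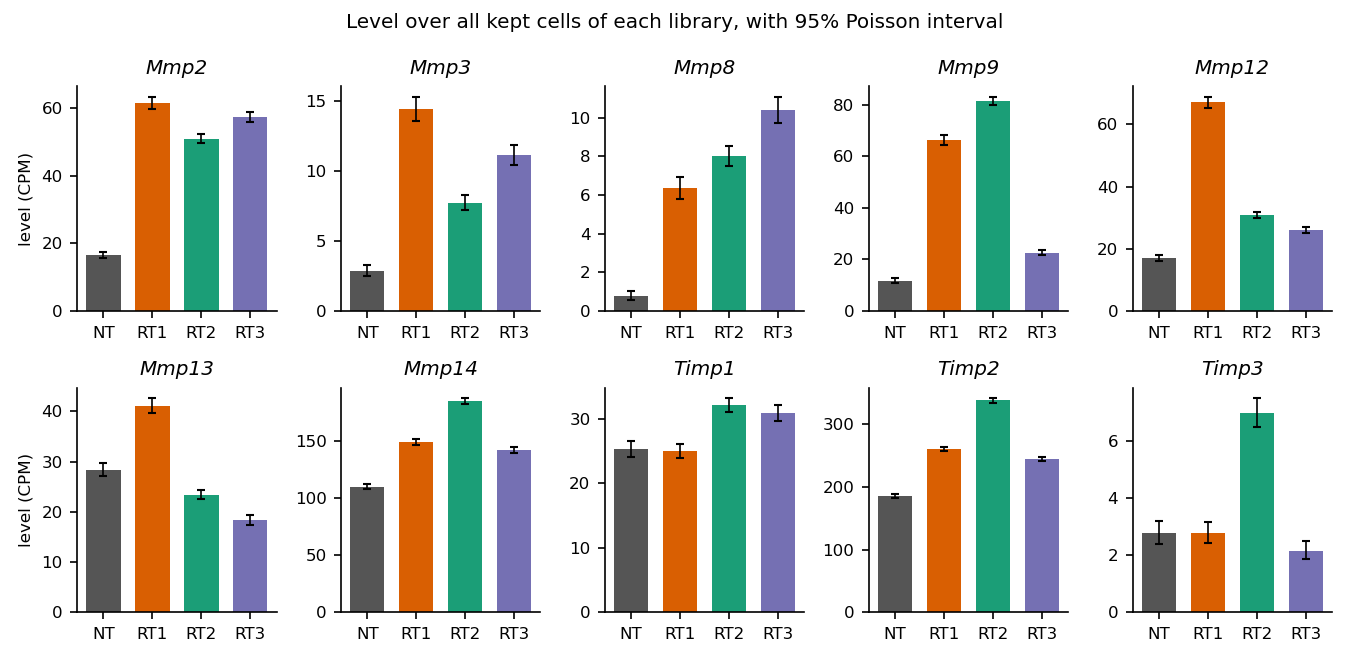
Level of each of the 10 genes in all kept cells of each library, in CPM. NT is 1 library of 3 pooled tumors and RT1 to RT3 are 1 tumor each. Mmp2, Mmp3 and Mmp8 were at least 2-fold higher in all 3 RT libraries, whereas Timp1 moved little, from 25.3 CPM in NT to between 24.98 and 32.1 CPM.

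Next, the cells that held the UMIs of each gene were traced. In NT most UMIs of Mmp14, Timp1 and Timp2 lay under tumor barcodes (91.4%, 93.1% and 93.1%). These shares were close to the 90.3% that tumor barcodes held of the UMIs of all genes there. In RT, where tumor cells held 76.1%, 73.4% and 84.4% of all UMIs, the tumor share of Timp2 was 68.3%, 72.6% and 83.8%, and macrophages held 24.97%, 19.8% and 9.7% of it, against 3.6% in NT.

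Mmp2 and Mmp3 had the same pair of sources. In NT 92.5% of Mmp2 UMIs (exact Clopper-Pearson 95% interval 90.8 to 93.9) lay in tumor cells and 4.8% in the 18 fibroblasts. In RT, fibroblasts held 11.2%, 31.7% and 41.3% of Mmp2, and tumor cells 82.1%, 62.7% and 54.5%. For Mmp3 the fibroblast share was 8.6% in NT and 14.0%, 37.7% and 43.4% in RT.

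In NT tumor cells held most Mmp9 UMIs (73.4%, interval 70.3 to 76.4), but less than their 90.3% of the UMIs of all genes. Macrophages held 23.6% of Mmp9 in NT, against 3.83% of all UMIs. In RT1 and RT2 the macrophage share of Mmp9 was 51.2% and 64.6% and the tumor share 33.6% and 23.7%. In RT3 the tumor share of Mmp9 stayed at 64.2%, with 27.2% in macrophages. Of all UMIs, macrophages held 12.05%, 12.8% and 5.69% in RT. Mmp12 and Mmp13 had most of their UMIs in macrophages and monocytes in all libraries. Macrophages held 55.0% of Mmp12 in NT and 51.8%, 43.4% and 53.9% in RT, and monocytes 33.1% in NT and 39.1%, 48.3% and 37.3% in RT. For Mmp13 the macrophage share in NT was 69.3% (counting interval 67.2 to 71.4), followed by 59.8%, 64.7% and 37.0% in RT. Monocytes held 14.3% of it in NT and 20.1%, 21.2% and 23.3% in RT, and tumor cells 9.51% in NT and 14.1%, 10.1% and 24.0% in RT, with a further 9.97% in the fibroblasts of RT3.

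Mmp8 came from monocytes (61.1% in NT, from 33 of 54 UMIs, and 49.5%, 55.9% and 58.9% in RT) rather than mainly from neutrophils, which held 5.6% in NT and 28.4%, 21.9% and 13.5% in RT. Timp3 was split between vessel cells and fibroblasts, with 39.6% in endothelial cells and 58.3% in fibroblasts in NT, and 64.7%, 62.1% and 19.6% in endothelial cells of RT.

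**Figure D2:**
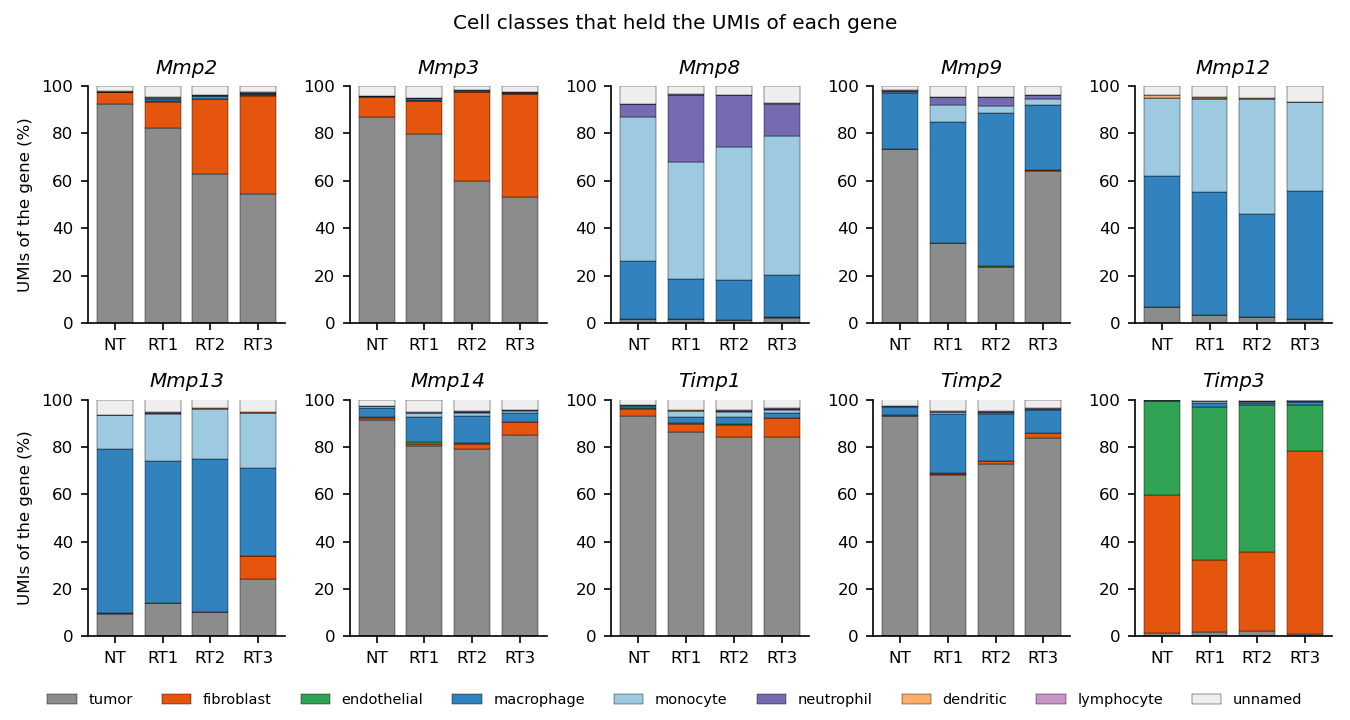
Share of the UMIs of each gene that lay in each cell class, as a percent of the gene's UMIs in that library; each bar is 1 library and sums to 100%. Most UMIs of Mmp14, Timp1 and Timp2 lay in tumor cells, which held most UMIs of all genes, and most of Mmp12, Mmp13 and Mmp8 in myeloid cells. Most UMIs of Timp3 lay in fibroblasts and endothelial cells, and the fibroblast part of Mmp2 went from 4.8% in NT to between 11.2% and 41.3% in RT.

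The level per class gave another order than the share of UMIs, because small classes can express a gene strongly. Fibroblasts, which build and remodel connective tissue, had the highest mean level over the 4 libraries of Mmp2, Mmp3, Mmp14 and Timp1, and for each of the 4 the range of the libraries did not overlap that of the next class. Mmp2 was at 542 CPM in fibroblasts of NT and at 2047, 2840 and 3274 CPM in RT, against 16.9 CPM and 66.4, 43.5 and 37.0 CPM in tumor cells. Timp3 was at 1103 CPM in fibroblasts of NT and 248, 408 and 231 CPM in RT, and at 428 CPM in endothelial cells of NT and 394, 704 and 301 CPM in RT. These ranges overlapped, and no other named class exceeded 4.47 CPM in any library. NT macrophages had 0 UMIs of Timp3, which allows up to 1.13 CPM (the level of 3 UMIs).

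Mmp12 was highest in monocytes (431 CPM in NT and 642, 308 and 316 CPM in RT), followed by macrophages (246 CPM and 288, 105 and 247 CPM), with ranges that did not overlap, and dendritic cells came next. Mmp13 was highest in macrophages (514 CPM in NT and 204, 119 and 120 CPM in RT) and next in monocytes (309 CPM and 203, 103 and 140 CPM), with overlapping ranges. Mmp8 was highest in neutrophils, above monocytes in 4 of 4 libraries although the ranges overlapped, and then in macrophages. For Mmp9 the order was neutrophils, macrophages, monocytes and tumor cells, each overlapping the next. For Timp2 it was fibroblasts, macrophages and tumor cells, again with overlap.

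UMIs of tumor cell transcripts were also counted under the barcodes of other classes, and their amount was estimated from Rhox5 alone. Other tumor markers gave other proportions. In NT neutrophils Krt8 and Hmga2 were each at 142 CPM, against 790 and 448 CPM in NT tumor cells. In RT3 neutrophils Krt8 was at 594 CPM, against 643 CPM in RT3 tumor cells. Rhox5 in macrophages was at 4.42% of its tumor cell level in NT and at 6.04%, 4.94% and 7.83% in RT, whereas in neutrophils, with a median of 631 UMIs per cell in NT, it was at 63.8% in NT and 51.5%, 41.6% and 60.8% in RT. Tumor RNA in these Rhox5 proportions would bring 71.0, 80.8, 82.8 and 86.8 CPM of Mmp14 into neutrophils of the 4 libraries, and 71.0, 78.7, 80.4 and 101 CPM were measured. The NT values rest on 2 Mmp14 UMIs and 19 Rhox5 UMIs in neutrophils. In contrast tumor RNA would bring at most 0.161 CPM of Mmp8 into neutrophils of any library, where Mmp8 was at 107 CPM in NT and 441, 427 and 570 CPM in RT. In the other direction, C1qa, C1qb and C1qc, which define macrophages, were in tumor cells at 0.0525% of their macrophage level in NT and at 0.2199%, 0.2598% and 0.122% in RT, which would bring at most 1.07 CPM of Mmp9. Col1a1 of fibroblasts was in tumor cells at no more than 0.0291% of its fibroblast level, which would bring at most 0.826 CPM of Mmp2. Several other fibroblast markers were more abundant in tumor cells. Dcn was at 42.4 CPM in NT and 198, 103 and 137 CPM in RT. Col3a1 was at 811 CPM and 1347, 1156 and 1152 CPM, and Pdgfra at 72.6 CPM and 123, 80.4 and 101 CPM. Col6a3 (560 CPM, and 674, 401 and 614 CPM) had no common direction, and Pdgfrb was lower in each RT library. The part of such cells or transcripts in the tumor cell results was not tested.

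**Figure D3:**
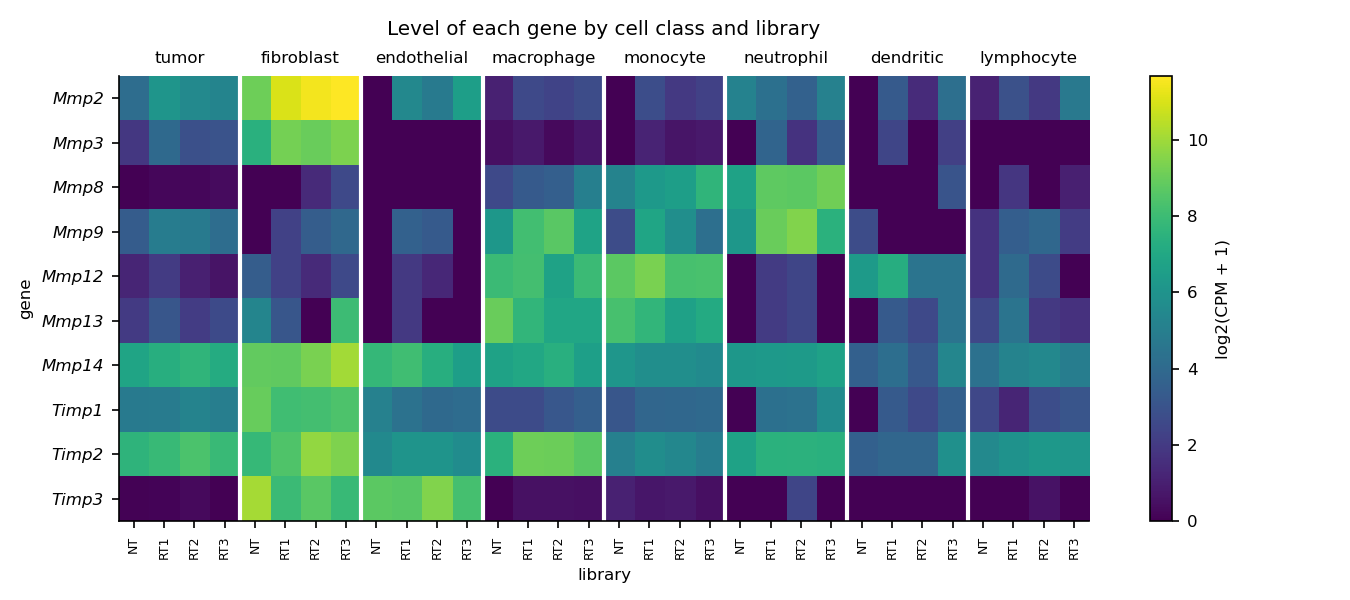
Heat map of the level of each gene (log2 of CPM + 1) in each cell class and library. Fibroblasts stand out for Mmp2, Mmp3, Mmp14 and Timp1, monocytes and macrophages for Mmp12 and Mmp13, neutrophils for Mmp8, and Timp3 is seen in fibroblasts and endothelial cells.

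The comparison of RT with NT was then made inside each class. In tumor cells 2 of 8 genes examined were called higher, Mmp2 and Mmp3, against 3.67% of 13114 genes, and 0 were called lower, against 0.168%. Mmp2 was at a log2 ratio of 1.49 ± 0.44 and Mmp3, at 2.75 CPM in NT and 15.1, 6.28 and 7.04 CPM in RT, at 1.67 ± 0.69. RT1 was the highest library for both. With each cell thinned to 2000 UMIs, a Mmp3 UMI was found in 0.390% of tumor cells in NT (interval 0.257 to 0.566) and in 1.36% (1.11 to 1.65), 0.549% (0.389 to 0.753) and 0.6004% (0.447 to 0.789) in RT, so that the intervals of RT2 and RT3 overlapped that of NT. In RT3, 81 of the 505 Mmp3 UMIs lay in 1 tumor cell. No thinned lymphocyte held a Mmp3 UMI, with exact intervals that reached up to 3.45% in NT and 2.84%, 1.26% and 2.72% in RT. Mmp9 was at 9.55 CPM in NT and at 29.2, 26.3 and 17.2 CPM in RT (1.31 ± 0.41), short of 2-fold in RT3 alone, and the amount that macrophage RNA would bring is given above. The median log2 ratio was 0.66 for the 8 genes and -0.01 for all genes examined.

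The remaining genes of tumor cells moved by less. Mmp14 was at 111 CPM in NT and 157, 199 and 143 CPM in RT (0.57 ± 0.25), and Timp2 at 192 CPM and 234, 334 and 243 CPM (0.48 ± 0.28). Timp1 was at 26.1 CPM in NT and 28.3, 36.8 and 30.8 CPM in RT (0.28 ± 0.19). Mmp13 was low, at 2.99 CPM in NT and 7.64, 3.23 and 5.24 CPM in RT, and a UMI of it was found in 1.02% of tumor cells in NT and 1.90%, 1.38% and 1.34% in RT. With each cell thinned to 2000 UMIs the shares were 0.390% and 0.892%, 0.405% and 0.718%, against 1.90% of lymphocytes in NT and 1.56%, 0.690% and 0.746% in RT, each from 1 or 2 cells. The tumor cell share was thus not resolved from that of lymphocytes. Lymphocytes held tumor RNA themselves, with Rhox5 at 27.0% of its tumor cell level in NT and 20.1%, 16.1% and 26.9% in RT. Their share therefore cannot serve as a background free of tumor cell Mmp13. Single tumor cells held up to 21 Mmp13 UMIs in NT and up to 38, 33 and 57 in RT. Mmp12 took both directions, with 1.28 CPM in NT and 3.06, 1.05 and 0.529 CPM in RT.

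Expression of Mmp2 was uneven among tumor cells. Of 14 tumor sub-clusters, 1 led by Ramp2, Lum, Ccl11, Vcan and Fbn1, with 3445 cells, had the highest Mmp2 in all 4 libraries, at 102 CPM in NT and 239, 125 and 185 CPM in RT. It also had the highest Mmp14 in all 4, at 274 CPM in NT and 357, 405 and 321 CPM in RT, and it held between 18.8% and 29.3% of all Mmp2 UMIs of a library. Rhox5 was at 886 CPM in this sub-cluster in NT and at 1215, 1125 and 1093 CPM in RT, close to its level in tumor cells as a whole (1057 CPM, and 1309, 1197 and 1182 CPM). Within it RT1 and RT3 were well above NT for Mmp2, and RT2 was closer to NT. The sub-cluster also differed in size, with 6.03% of tumor cells in NT and 11.9%, 16.7% and 9.11% in RT, and the part of this in the Mmp2 result of tumor cells was not tested. Depth differed between libraries as well, so each tumor cell was thinned to 2000 UMIs. The share of tumor cells with a UMI of Mmp2 was then 2.97% in NT and 8.24%, 6.32% and 5.23% in RT (7.13% and 15.2%, 14.6% and 10.8% unthinned), with 299, 443, 487 and 637 shallower cells left out. In lymphocytes, which should lack Mmp2, it was 0.952% in NT, from 1 cell, and 0.781%, 0% and 3.73% in RT at the same depth, their median depth before thinning being 1371 UMIs in NT against 7416.5 UMIs in tumor cells.

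In macrophages, 2 of 8 genes examined were called higher, Timp2 and Mmp2, against 4.32% of 10574 genes. Lower was 1, Mmp13, against 2.45%. Mmp2 reached the UMI minimum for a call only through the RT libraries. Timp2, at 173 CPM in NT with a counting interval of 158 to 190, reached 541, 524 and 418 CPM in RT, a narrow group well above NT, at 1.51 ± 0.20. Tumor RNA would bring 8.49 CPM of it in NT and between 14.1 and 19.0 CPM in RT. After thinning to 2000 UMIs a Timp2 UMI was found in 27.3% of NT macrophages (interval 23.4 to 31.5) and in 55.8%, 52.0% and 48.6% of RT macrophages (33.4%, 58.4%, 65.3% and 48.3% unthinned). Lymphocytes at that depth gave 9.52% in NT and 5.47%, 6.21% and 10.4% in RT. All 6 monocyte markers were also detected in macrophages, Thbs1 the most abundant, and they did not move together. Chil3 was at 6.03 CPM in NT and 32.1, 38.6 and 172 CPM in RT, Ly6c2 at 18.9 CPM and 47.8, 85.6 and 162 CPM, and Vcan at 22.6 CPM and 41.7, 37.99 and 68.2 CPM. Ccr2 was lower in each RT library, at 118 CPM in NT and 47.4, 42.96 and 62.99 CPM in RT, while Plac8 (46.8 CPM, and 40.6, 97.2 and 88.2 CPM) and Thbs1 (1536 CPM, and 1185, 1183 and 1988 CPM) had no common direction. Mast cell markers, 4 of 4 detected and Mcpt4 the most abundant, summed to 77.9 CPM in RT3 and to at most 1.13 CPM in the other libraries. The part of these cells or transcripts in the macrophage results was not tested.

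Mmp13 went the other way, from 514 CPM in NT, with a counting interval of 487 to 542, to 204, 119 and 120 CPM in RT (-1.85 ± 0.45). The share of thinned macrophages with a Mmp13 UMI was 26.1% in NT and 11.9%, 9.21% and 7.85% in RT, against at most 1.90% of lymphocytes. Macrophages with genes of the cell cycle were more frequent in NT, where 4 cycling markers (Mki67, Top2a, Cenpf and Ube2c, Top2a the most abundant) summed to 253 CPM against 86.9, 63.6 and 74.1 CPM in RT, and their part in the Mmp13 result was not tested. In the sub-cluster of cycling myeloid cells Mmp13 was at 556 CPM in NT and at 535, 103 and 85.5 CPM in RT, and in the sub-cluster led by Ifnb1 and Cxcl9 at 835 CPM and 265, 176 and 263 CPM.

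The call of Mmp2 in macrophages rests on 3 UMIs in NT, and the log2 ratios had 95% counting intervals of 0.48 to 4.45, 0.21 to 4.16 and 0.60 to 4.67 in RT. The levels were 1.13 CPM in NT and 4.91, 4.04 and 5.58 CPM in RT, of which tumor RNA would bring 0.748 CPM and 4.01, 2.15 and 2.90 CPM. Mmp2 was no longer called once that amount was subtracted, although the levels left by these values were still higher in each RT library. That remainder depends on Rhox5 alone, and other tumor markers would give other amounts. Krt8 was at 30.9 CPM in NT macrophages and 47.8, 51.4 and 82.0 CPM in RT macrophages. In tumor cells it was at 790 CPM in NT and 557, 670 and 643 CPM in RT, a proportion above that of Rhox5 in each RT library. The part of tumor RNA in the ratio was not tested. Mmp9 in macrophages was at 72.4 CPM in NT and 281, 412 and 108 CPM in RT (1.68 ± 1.00), with RT3 at a log2 ratio of 0.57. In NT 86 of the 192 Mmp9 UMIs came from 1 macrophage. That cell counts only as 1 in the share of thinned macrophages with a Mmp9 UMI. This share was 4.02% in NT and 21.04%, 27.4% and 10.7% in RT. Thinned lymphocytes of RT gave 2.34%, 2.07% and 0.746%. None of the 105 thinned NT lymphocytes held a Mmp9 UMI, which by the exact interval allows up to 3.45%. The exact interval of NT macrophages starts at 2.47%, so the 2 intervals overlapped, which is no comparison of the shares. Without thinning, 6.46% of NT macrophages and 0.525% of NT lymphocytes held a Mmp9 UMI, at unequal depth. Neutrophil markers were also detected in macrophages. Csf3r was at 15.8 CPM in NT and 65.3, 91.5 and 41.5 CPM in RT. S100a8 was at 2.26 CPM and 6.30, 21.8 and 10.3 CPM, and S100a9 at 0.377 CPM and 5.34, 16.4 and 3.10 CPM, while Cxcr2 had no common direction. Their part in the Mmp9 result was not tested. Mmp12 had no common direction, and Mmp14 was at 105 CPM in NT and 128, 162 and 95 CPM in RT.

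Ccl8-high macrophages, the myeloid sub-cluster with the highest mean Ccl8 over the 4 libraries (in RT1 the sub-cluster led by Ifnb1 and Cxcl9 was higher), led by Lyve1, Cd209f, Cbr2, Cd163 and Bmp2, numbered 2112 cells. They made up 1.28% of cells in NT and 5.55%, 5.12% and 2.54% in RT. Of 5 genes examined in them, 2 were called higher (6.29% of 8444 genes) and 0 lower (1.66%). Of the genes called, Mmp9 reached the UMI minimum for a call only through the RT libraries. Mmp9 was at 19.6 CPM in NT, from 11 UMIs, and at 229, 481 and 135 CPM in RT (3.65 ± 0.92), and Timp2 at 250 CPM in NT and 677, 690 and 577 CPM in RT (1.37 ± 0.14). Mmp13 was at 189 CPM in NT and at 95.6, 58.9 and 50.6 CPM in RT (-1.52 ± 0.48), with RT1 just inside the 2-fold limit. Of all Mmp9 UMIs in a library these cells held 1.4% in NT and 16.0%, 27.2% and 10.3% in RT.

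In monocytes 2 of 7 genes examined were called higher, Mmp8 and Mmp9, against 5.76% of 8817 genes, and 0 lower, against 1.01%. Both reached the UMI minimum for a call only through the RT libraries. Mmp8 was no longer called with TMM scaling or a limit of 10% mitochondrial UMIs, nor Mmp9 at clustering resolutions of 0.4 and 1.2. Mmp8, at 36.2 CPM in NT with a counting interval of 24.9 to 50.8, reached 76.9, 92.7 and 199 CPM in RT (1.64 ± 0.73), with RT3 the highest. Mmp9 was at 5.48 CPM in NT, from 5 UMIs, and at 115, 54.2 and 18.0 CPM in RT (3.14 ± 1.35), with RT3 the lowest. Neutrophil marker S100a8 was at 0 CPM in NT monocytes and at 30.9, 99.5 and 62.1 CPM in RT monocytes, and its part in the results was not tested. Timp1 was at 7.67 CPM in NT, from 7 UMIs with a counting interval of 3.08 to 15.8 that holds the RT values of 13.2, 13.7 and 14.9 CPM (0.86 ± 0.09), and Mmp13 was lower in every RT library (-1.11 ± 0.49), both without reaching 2-fold in each. Mmp14 was at 70.1 CPM in NT and 54.2, 53.5 and 47.5 CPM in RT (-0.44 ± 0.10).

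Levels also differed among myeloid sub-clusters. Of 13 myeloid sub-clusters, 1 with 650 cells, 70.2% of them monocytes, was led by Cxcl5, Gpnmb, Ppbp, Inhba and Cd36 and had the highest Mmp12, Mmp13 and Mmp8 in all 4 libraries. Its Mmp12 was at 2324 CPM in NT and 3255, 1823 and 2522 CPM in RT, and it held 17.4% of all Mmp12 UMIs in NT and 31.4%, 32.6% and 51.4% in RT. It held less of Mmp13, 3.92% in NT and 14.9%, 6.91% and 16.2% in RT, and the sub-cluster led by Ifnb1 and Cxcl9 held 29.4% in NT and 17.5%, 27.7% and 19.0% in RT. In the sub-cluster led by Cxcl5, Mmp8 was at 102 CPM in NT and 139, 255 and 574 CPM in RT. In RT2, 254 of the 1617 Mmp12 UMIs of monocytes came from 1 cell.

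In neutrophils 2 of 4 genes examined were called higher, Mmp8 and Mmp9, against 6.97% of 3028 genes, and 0 lower, against 4.76%. Both had the 50 UMIs needed for a call only through the RT libraries, and the NT level came from 20 cells, so the count is a description of few UMIs. Mmp9 was at 71.0 CPM in NT, from 2 UMIs, and at 510, 699 and 172 CPM in RT. Mmp8 rested on 3 UMIs in NT, with counting intervals of its log2 ratios from 0.47 to 4.34 in RT1, 0.43 to 4.29 in RT2 and 0.84 to 4.72 in RT3. For Mmp9 the intervals ran from 0.97 to 5.90, from 1.43 to 6.35 and from -0.68 to 4.38, so the ratio in RT3 was not resolved at this depth. Read at the floor of 3 UMIs used for a sum of 0, NT would be at 107 CPM, RT3 would be less than 2-fold higher, and Mmp9 would not be called.

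In fibroblasts 2 of 7 genes examined were called higher, Mmp2 and Mmp3 (10.5% of 4493 genes), and 1 lower, Timp3 (4.1%). Mmp2 was at a log2 ratio of 2.30 ± 0.35 from 55 UMIs in NT, and Mmp3, at 167 CPM in NT and 600, 512 and 668 CPM in RT, at 1.82 ± 0.19. The NT level of Mmp3 came from 17 UMIs in 3 of 18 cells, 15 of them in 1 cell, so that this ratio rests on 1 NT cell. Mmp3 also had the 50 UMIs needed for a call only through the RT libraries. Timp3 was at -1.95 ± 0.45. All 5 pericyte markers were detected among these fibroblasts and summed to 4906 CPM in NT and 1173, 102 and 512 CPM in RT, Rgs5 the most abundant, and adipocyte markers, 4 of 4 detected and Cfd the most abundant, to 0 CPM in NT and 3136, 48.6 and 611 CPM in RT. Krt8, a keratin of epithelial cells and of these tumor cells, was at 59.1 CPM in NT fibroblasts and at 447, 479 and 125 CPM in RT, and Krt18 at 0 CPM in NT and 49.7, 240 and 1.63 CPM in RT, while Rhox5 was at 12.1% of its tumor cell level in NT and 17.5%, 19.7% and 16.9% in RT. The part of these cells or transcripts in the fibroblast results was not tested. Timp1 was lower in each RT library, at 493 CPM in NT and 271, 287 and 337 CPM in RT (-0.73 ± 0.16), and Mmp14 spread widely, with 473 CPM in NT and 447, 641 and 1080 CPM in RT. Timp2 was higher in each, at 227 CPM in NT and 355, 869 and 675 CPM in RT. Mmp13 reached 254 CPM in RT3, where 103 of its 156 UMIs lay in 1 cell.

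No gene was called among the 3 examined in endothelial cells, the 2 in lymphocytes or the 1 in dendritic cells, where 3.94%, 2.53% and 4.1% of all genes were called higher and 1.3%, 0.646% and 1.02% lower. Endothelial Timp3 was at a log2 ratio of 0.03 ± 0.63.

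**Figure D4:**
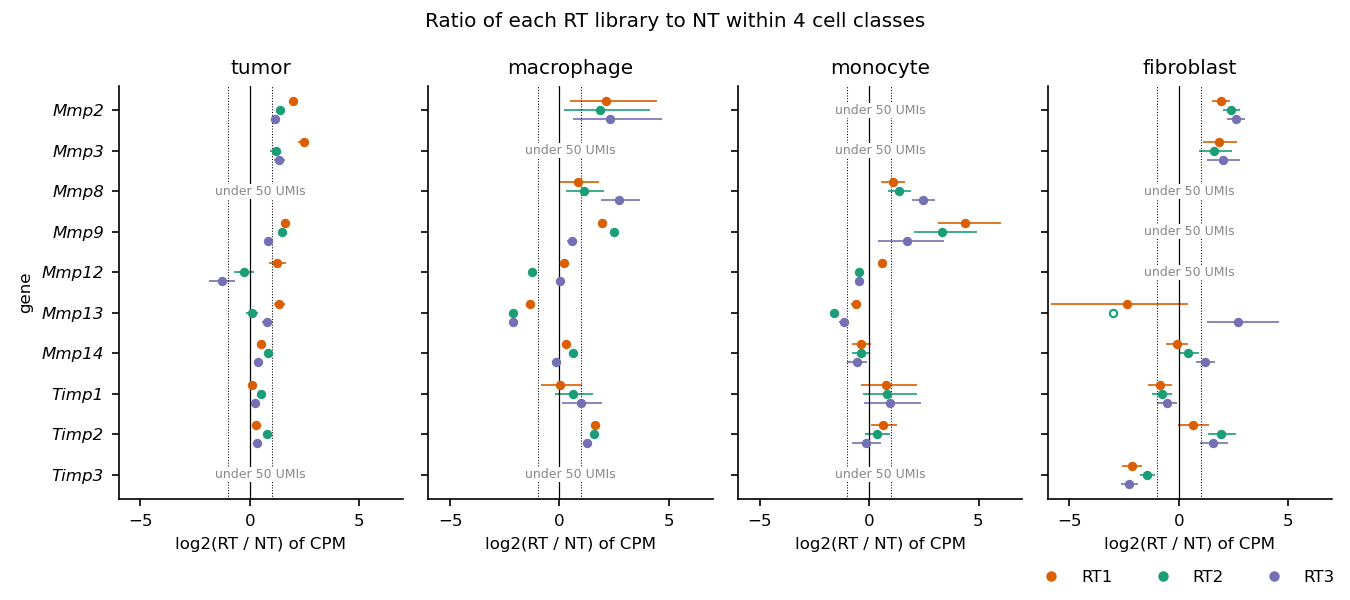
Log2 ratio of RT over NT for each gene within tumor cells, macrophages, monocytes and fibroblasts, 1 point per RT library; open circles mark a sum of 0 UMIs read at the floor of 3, and dotted lines mark 2-fold. Mmp2 and Mmp3 lie beyond the upper line in tumor cells and fibroblasts, Timp2 in macrophages, and Mmp13 lies beyond the lower line in macrophages.

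Because the classes changed in frequency while the genes changed within them, each was held in turn. With the share of each class in all UMIs held at its NT value and only the level inside the classes taken from RT, the log2 ratio of Mmp2 was 1.56 ± 0.37, near the 1.77 ± 0.14 measured, and with the levels held and only the shares taken from RT it was 0.04 ± 0.14. Mmp3 gave 1.66 ± 0.64 and 0.20 ± 0.18 in the same way, Mmp14 0.55 ± 0.24 and -0.00 ± 0.02, and Timp2 0.53 ± 0.27 and -0.05 ± 0.03. For these genes the ratio with shares held was the one closer to the measured ratio, while shifts between sub-clusters inside a class count here as levels. Mmp12, measured at 1.14 ± 0.73, gave 1.34 ± 0.48 when levels were held. With shares held its libraries went both ways, at 0.51, -0.79 and -0.17, a mean of -0.15 ± 0.65. Mmp8, measured at 3.37 ± 0.36, had parts of 1.75 ± 0.77 and 1.61 ± 0.39. For Mmp13 the parts had opposite signs, -1.14 ± 0.51 with shares held and 1.26 ± 0.52 with levels held, and -0.12 ± 0.60 was measured. The 2 values need not add up to the measured ratio, because levels and shares differed together. Timp3 likewise had -0.75 ± 0.61 with shares held and 1.46 ± 0.36 with levels held, with 0.32 ± 0.89 measured.

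**Figure D5:**
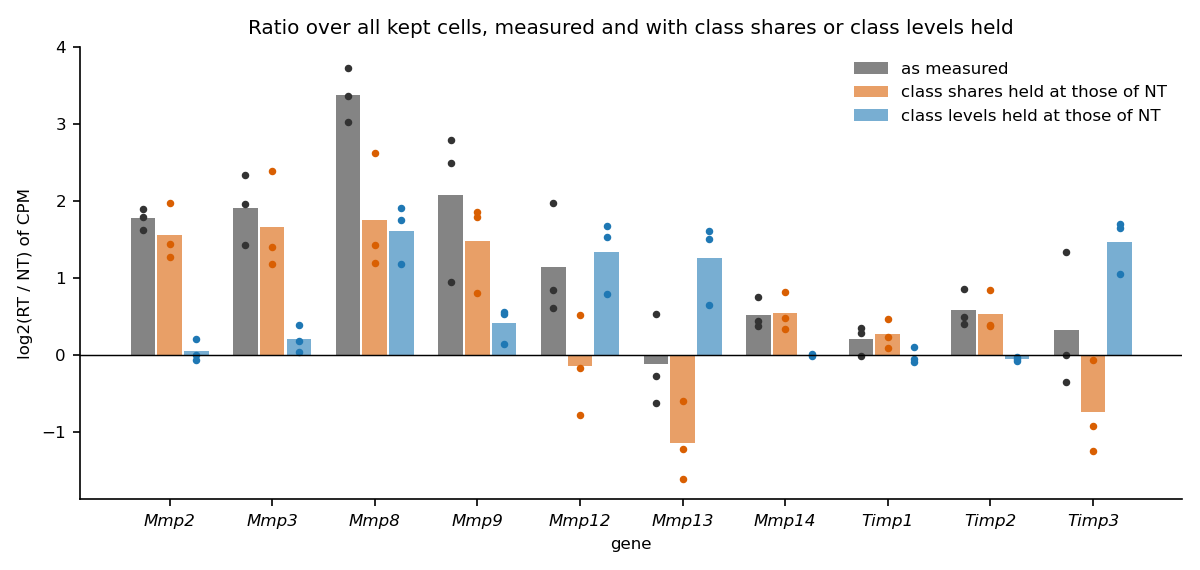
Mean log2 ratio of RT over NT in all kept cells as measured, with class shares held at NT, and with class levels held at NT. Mmp2 and Mmp3 keep their ratio when shares are held, the mean of Mmp12 goes from 1.14 to -0.15 (RT1 stays above 0), and for Mmp13 both parts have opposite signs.

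The genes most like each of the 10 were found by Pearson correlation of log2(CPM + 1) over 8 classes in 4 libraries, 32 points that share libraries and depths, among 12604 genes, and are given as a description. Mmp2 was most like Col3a1 (r = 0.924), Col5a2 and Fbn1, which encode matrix fibers, and Mmp3 most like Fgf7 (0.936), Ptgis and Larp6. Mmp8 was most like the formyl peptide receptor Fpr2 (0.954), Trem3 and Tarm1, and Mmp9 most like Fpr1 (0.825), Slc40a1 and Pla2g7. Mmp12 was most like Ptpro (0.926), Cd180 and Ticam2, and Mmp13 most like the lipid receptor Trem2 (0.844), Gpr85 and F7. Mmp14 was most like Laptm4a (0.934), Wipi1 and Pkd2. Timp1 was most like P3h3 (0.912), Atf5 and Islr, Timp2 most like Cd63 (0.851), Steap3 and Wls, and Timp3 most like the laminin chain Lama4 (0.983), Nrep and Col15a1, a collagen of basement membranes.

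Other genes of the pathway were read from 5 lists over all kept cells, where 5.55% of all genes were called higher and 0.242% lower. Of 7 other MMPs examined, 1 was called higher and 0 lower. It was Mmp27, at 0.144 CPM in NT, from 10 UMIs, and 2.56, 1.44 and 1.12 CPM in RT. Mmp27 reached the UMI minimum for a call only through the RT libraries. Mmp19 was higher in each RT library without reaching 2-fold in all, at 44.3 CPM in NT and 89.3, 79.5 and 119 CPM in RT, and in Ccl8-high macrophages it was called, as were 6.29% of all genes there, at 35.7 CPM in NT and 81.6, 74.1 and 103 CPM in RT. In those macrophages Mmp19 also reached the UMI minimum only through the RT libraries. Mmp11 was at 20.1 CPM in NT and 24.9, 32.9 and 22.6 CPM in RT.

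Of 5 other inhibitors, 1 was called higher and 0 lower. Serping1, the inhibitor of complement C1, was at 2.86 CPM in NT and at 12.7, 24.4 and 23.0 CPM in RT, and in fibroblasts it was called as well, at 1507 CPM in NT and 3319, 3918 and 3021 CPM in RT. Cst3, the inhibitor of cysteine cathepsins, was at 184 CPM in NT and 260, 541 and 249 CPM in RT, and Slpi at 42.7 CPM in NT and 40.8, 40.8 and 96.5 CPM in RT. Of 9 genes of plasminogen activation, 2 were called higher, the inhibitors Serpine2 (1.67 CPM in NT and 3.72, 7.51 and 6.70 CPM in RT) and Serpinb2 (1.13 CPM and 2.78, 3.77 and 3.22 CPM), and 0 lower. The urokinase receptor Plaur was at 139 CPM in NT and 207, 195 and 185 CPM in RT.

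Of 10 activators and partners, 1 was called higher and 0 lower. Lcn2, a lipocalin that binds and stabilizes Mmp9, was at 1.52 CPM in NT and 5.53, 8.10 and 7.17 CPM in RT, and was also called in tumor cells, at 1.55 CPM in NT and 3.42, 3.65 and 4.47 CPM in RT. Cd44, a hyaluronan receptor to which Mmp9 can bind, was lower in each RT library by less than 2-fold, at 448 CPM in NT and 334, 304 and 446 CPM in RT. Of 15 ADAM and ADAMTS proteinases, 3 were called higher and 0 lower, against the same 5.55% and 0.242%. Of those called, Adamts5 and Adamts15 reached the UMI minimum for a call only through the RT libraries. Adam8, a sheddase of myeloid cells, was at 33.1 CPM in NT and at 141, 111 and 82.2 CPM in RT. The aggrecanase Adamts5 was at 0.0866 CPM in NT, from 6 UMIs, and 1.35, 2.56 and 3.30 CPM in RT, and in fibroblasts it was at 39.4 CPM in NT and 363, 429 and 444 CPM in RT. Adamts15 was at 0.0433 CPM in NT, from 3 UMIs, and 0.386, 1.25 and 0.988 CPM in RT. The sheddases Adam10 and Adam17 were near their NT level, with log2 ratios of 0.14 ± 0.18 and 0.05 ± 0.22.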

How the data were processed

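The authors used the SeekOne MM kit (3′ ends, UMIs) for the 4 libraries and SeekOne Tools for the reads. The submitters' processing notes name STAR 2.5.1b, featureCounts, Subread 1.6.4, Cell Ranger and GRCm39 (mm39), without roles. They deposited UMI counts as whole numbers per gene and barcode, not normalized, and 1 table per library. RT2's table appears to have been filtered before deposit. The files hold no coordinates, and those given are from GENCODE M21 and RefSeq on GRCm38. Whether reads of overlapping genes were split by strand is not given in the sources used here.

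Genes in all 4 tables were joined by symbol, which left out at most 0.00185% of UMIs of a library. Barcodes were kept from 200 genes upward and up to 20% mitochondrial UMIs. Counts were scaled to 10000 per cell and log-transformed, and 2000 variable genes (without the 10 genes, the related lists and mitochondrial genes) reduced to 30 components. These were integrated over libraries with a rewritten Harmony algorithm (theta 2, lambda 1, sigma 0.1) and clustered by Leiden at resolution 0.8 on a graph of 20 shared neighbors, giving 18 clusters. For each cluster, every marker's level was divided by its maximum over clusters, and the class with the highest mean gave the name. It stayed unnamed with fewer than 3 markers above the mean, with more markers of another class among its top 10 genes, or when shallow with none of its own there, and 2 clusters did. This naming rule was settled, and Fn1 dropped from the monocyte markers, after clusters of these data had been seen. All cells were kept whatever their doublet score.

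UMIs were summed per class and library. With 1 NT library no p-value was computed, and genes were called by size, that is when every RT library differed from NT by a log2 ratio of 1 or more in the same direction, for genes with at least 50 UMIs, with a sum of 0 read at 3 UMIs and no ratio where both sums were 3 or fewer. Tumor RNA in another class was estimated from its Rhox5 CPM as a share of that of tumor cells. Intervals are exact (Poisson for sums, Clopper-Pearson for shares, conditional binomial for ratios) at 95% and cover counting error only. The members, lists and marker choices were made with earlier results of these data known. Named were the 10 genes in every population, list genes past the rule with up to 3 more per list by UMIs, the 3 most alike genes of each member, and the 5 leading genes of sub-clusters. Protein motifs were not analysed here. Alternatives were TMM factors (edgeR), 10% mitochondrial UMIs, removal of the 8% of cells with the highest simulated-doublet scores, resolutions 0.4 and 1.2, clusters per library, subtraction of tumor RNA, no UMI minimum, a log2 limit of 0.58, and leaving out each RT library. Python 3.11.15 (numpy 2.4.6, scipy 1.17.1, pandas 2.3.3, scikit-learn 1.9.0, igraph 0.11.9, leidenalg 0.10.2, matplotlib 3.10.9), R 4.3.3 and edgeR 4.0.16 were used.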

Additional observations from a re-analysis of the deposited data

Results flagged for a closer look

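Mmp13 was higher in every RT library in tumor cells (mean log2 ratio 0.76) and lower in every RT library in macrophages (-1.85) and in monocytes (-1.11). Mmp14 was higher in every RT library in tumor cells (0.57) and lower in every RT library in monocytes (-0.44). These pairs drew attention because all RT libraries moved one way in one class and the opposite way in the other, and the difference between the classes was not tested. In RT2 the log2 ratio of Mmp13 in tumor cells was 0.11, with a counting interval of -0.16 to 0.39. That library thus did not differ from NT beyond counting error. At matched depth the share of tumor cells with a Mmp13 UMI was not resolved from that of lymphocytes, which also held tumor RNA. Mmp13 in tumor cells was at 7.64 CPM or less, and macrophage RNA, read from C1qa, C1qb and C1qc, would bring at most 0.449 CPM of it in any library. Tumor RNA would bring at most 12.1 CPM of Mmp14 into monocytes, where it was at 47.5 CPM or more. Monocyte Mmp14 came from 64 UMIs in NT and 172, 281 and 124 UMIs in RT, so its small ratio carries a wide counting error.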

How the results depend on the processing

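Over all kept cells, Mmp2, Mmp3 and Mmp8 were called under each alternative run there, and the number of members called was 3 to 4 when 1 RT library was left out (4 without RT3, which added Mmp9) and 5 at a log2 limit of 0.58 (with Mmp9 and Mmp12). Genes called numbered 836, from 959 to 1600 with any 1 RT library left out (1600 without RT3), 1892 at 0.58 and 1151 without a minimum of UMIs. In tumor cells Mmp2 and Mmp3 were called under each alternative, with Mmp9 added without RT3 or at 0.58 and Mmp8 without a minimum. In macrophages Timp2 and Mmp13 were called under each alternative, and Mmp2 was lost after subtraction of tumor RNA or with clusters of each library on its own (2 called); 3 to 4 were called when 1 RT library was left out. In monocytes the 2 calls became 1 with TMM factors or at most 10% mitochondrial UMIs (Mmp9 alone), 1 at resolutions 0.4 and 1.2 (Mmp8 alone) and 4 at 0.58 (with Timp1 and, lower, Mmp13), and 2 to 3 when 1 RT library was left out (3 without RT1, with Mmp13 lower); the cause was not tested. Clusters of each library on its own named no NT monocytes, so no value could be had there. Of single log2 ratios, 38 of 516 moved by more than the spread between RT libraries, and 21 that were not called changed sign, among them Timp3 over all cells without RT2 (-0.18), Mmp13 without RT3 (0.13) and Mmp12 in macrophages without RT2 (0.11). The NT library averages 3 tumors and has no replicate. Differences between tumors thus cannot be told apart from radiation for any gene, also where RT libraries lie close together. The 18 fibroblasts and 20 neutrophils of NT limit its levels in those classes. No paired analysis was possible because NT is a pool of 3 tumors and each RT library is a tumor of its own.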
